A study of Mus musculus with 6 samples.

Results

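The genes described here encode calcineurin, its NFAT transcription factors and calcium/calmodulin-dependent protein kinase II (CaM kinase II): Nfatc1, Nfatc2, Nfatc3, Nfatc4, Ppp3ca, Ppp3cb, Ppp3cc, Ppp3r1, Camk2d and Camk2g. All probe sets that the platform's table assigned to a single symbol, that of 1 of these genes, were taken, which gave 38 of the 45101 probe sets of the array and 10 of the 18194 genes with such a probe set. The genes were selected on the signals themselves, because probe sets of Nfatc3, Nfatc4, Ppp3cb and Camk2d differed between the groups, so their group differences are given as a description and carry no test. Embryos of FVB mice at E10.5 (10.5 days of gestation), taken whole from diabetic or control dams, were profiled on 6 Affymetrix mouse arrays. Each array held the pooled RNA of 3 embryos, each of a different dam, so that 3 control pools and 3 diabetes-exposed pools stood for 9 embryos per group. Diabetic dams were FVB females of 7 to 9 weeks given 2 injections of 100 mg/kg streptozotocin, a toxin of the pancreatic beta cell, and mated once their blood glucose was above 250 mg/dL. Control embryos were of the same strain and age, from pregnancies labelled as control. The diabetes was chemical, the embryos chosen appeared morphologically normal, and pooling hid the spread between single embryos. The RNA was that of the whole embryo, in which fewer cells of a type and less RNA per cell cannot be told apart.

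Calcineurin is a protein phosphatase made of a catalytic A subunit (encoded by Ppp3ca, Ppp3cb or Ppp3cc) and a regulatory B subunit (Ppp3r1 outside the testis), and it is switched on by calcium bound to calmodulin. It removes phosphates from the cytoplasmic NFAT proteins, which then enter the nucleus and act on transcription together with partner factors. Protein kinases such as GSK3, DYRK1A and casein kinase I add the phosphates back and send NFAT out. CaM kinase II is another effector of calcium and calmodulin and lies, with calcineurin, downstream of the non-canonical Wnt/calcium branch. In the embryo the pathway is known for the growth of the heart valves from endocardium, the patterning of vessels and the outgrowth of axons.

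The arrays differed in a technical measure in the same direction as the groups. Affymetrix adds polyadenylated spike transcripts to each RNA before labelling, and their signal near the 3′ end was 2.07 to 2.52 times that of the middle on the control arrays and 3.47 to 7.00 times on the diabetes-exposed arrays. Diabetes-exposed pool 2 had the lowest ratio of its group (3.47) and control pool 3 the highest of the controls (2.52). For the Actb control probe sets, which read the embryos' own RNA, the 3′ signal divided by the 5′ signal was 1.71 to 2.19 in control pools and 3.09, 10.1 and 10.3 in diabetes-exposed pools 2, 1 and 3. The median signal of an array was 82.5 to 103.3 in control and 74.1 to 78.9 in diabetes-exposed pools. All 7 markers of the whole embryo could be read, with an Hbb-bh1 signal (embryonic globin) of 30400 ± 1370 in control and 33270 ± 4060 in diabetes-exposed pools (mean ± SD, n = 3 each). In the limma fit described below, Hbb-bh1 and 2 others of the 7 were not called. Sox2 (4535 ± 113 and 2964 ± 95.1) and Pax6 were called lower in diabetes-exposed pools. Myf5 and Afp (3268 ± 215 and 6191 ± 1420) were called higher. Prl8a2, a decidual prolactin and the 1 of 6 decidua and placenta markers that could be read, had signals of 6211 ± 447 and 36.3 ± 4.88. Whether tissue of the mother or placenta contributed to the signals below was not tested.

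Of the 10 genes, 6 had promoter sequences among the RefSeq entries searched (mouse assembly GRCm38.p6), in 8 entries. The search for these genes left out 1 chromosome, so a gene without an entry here may have one in RefSeq. Sequences of 4 genes are shown, since probe sets of Nfatc4 and Ppp3cb lay furthest below control in the diabetes-exposed pools and those of Ppp3r1 and Camk2d lay above it. Each gives the 250 bases before the annotated start, 5′ to 3′ on the strand of the gene: Nfatc4 from chr14:55824545-55824794 (plus strand), Ppp3cb from chr14:20546574-20546823 (minus), Ppp3r1 from chr11:17159048-17159297 (plus) and Camk2d from chr3:126596701-126596950 (plus). Capitals mark the letters GGAAA, the core that NFAT proteins bind, on either strand (TTTCC on the strand shown).
Nfatc4: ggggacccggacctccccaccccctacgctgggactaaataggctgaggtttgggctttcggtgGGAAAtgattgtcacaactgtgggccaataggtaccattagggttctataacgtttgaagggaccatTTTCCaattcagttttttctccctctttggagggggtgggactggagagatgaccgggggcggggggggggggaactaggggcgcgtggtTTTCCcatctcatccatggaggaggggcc
Ppp3cb: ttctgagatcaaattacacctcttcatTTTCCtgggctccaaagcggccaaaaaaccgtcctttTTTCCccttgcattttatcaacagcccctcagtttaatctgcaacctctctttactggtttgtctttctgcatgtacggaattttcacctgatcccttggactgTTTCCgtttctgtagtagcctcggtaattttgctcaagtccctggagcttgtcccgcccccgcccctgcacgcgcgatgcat
Ppp3r1: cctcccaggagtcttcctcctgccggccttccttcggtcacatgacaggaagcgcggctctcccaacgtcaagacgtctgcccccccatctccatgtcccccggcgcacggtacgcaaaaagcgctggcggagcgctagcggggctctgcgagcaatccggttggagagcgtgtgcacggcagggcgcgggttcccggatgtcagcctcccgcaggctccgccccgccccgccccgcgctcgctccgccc
Camk2d: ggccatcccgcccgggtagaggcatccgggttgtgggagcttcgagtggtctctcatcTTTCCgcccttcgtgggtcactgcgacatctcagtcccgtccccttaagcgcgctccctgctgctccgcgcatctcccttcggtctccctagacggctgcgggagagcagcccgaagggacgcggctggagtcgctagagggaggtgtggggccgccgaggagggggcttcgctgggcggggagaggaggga
The Nfatc4 sequence held the letters at 3 places, whose first bases lay 186, 119 and 29 bases before the start. In the Ppp3cb sequence they stood at 3 places as well, 223, 186 and 82 bases before it, and in that of Camk2d at 1, 192 bases before it. No match was found in the Ppp3r1 window, which says only that these letters are not in it. The letters are common: 18254 of 32851 promoter entries of the same length, with no chromosome left out, held them (55.6%). So did 6 of the 8 entries found for these genes, and the letters overlap GGAA, the core bound by ETS factors. A match is a description of sequence and not a site.

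Of the 38 probe sets, 31 passed the filter on dim signals and 7 did not. In the limma fit over all 30025 probe sets tested, 8 of the 31 were called lower in diabetes-exposed pools at an adjusted p under 0.05, beside 21.8% of all probe sets tested, and 3 were called higher, beside 14.4%. Of the 31, 4 were called lower by 2-fold or more, beside 11.0% of all sets tested, and 1 was called higher by that much, beside 1.24%. No call in either direction was made for 20 of the 31. The rule used this same contrast, and nothing is read from these counts. The median log2 fold change of the 31 sets was -0.19, beside -0.05 over all sets tested. The 3 pools of each group did not overlap at 14 of the 31 sets, lower in diabetes-exposed pools at 11 (beside 28.0% of all sets tested) and higher at 3 (beside 21.9%). The catalytic calcineurin genes Ppp3ca and Ppp3cb and the NFAT genes Nfatc3 and Nfatc4 held all 8 lower calls, and Ppp3r1 and Camk2d held the 3 higher ones.

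**Figure D1:**
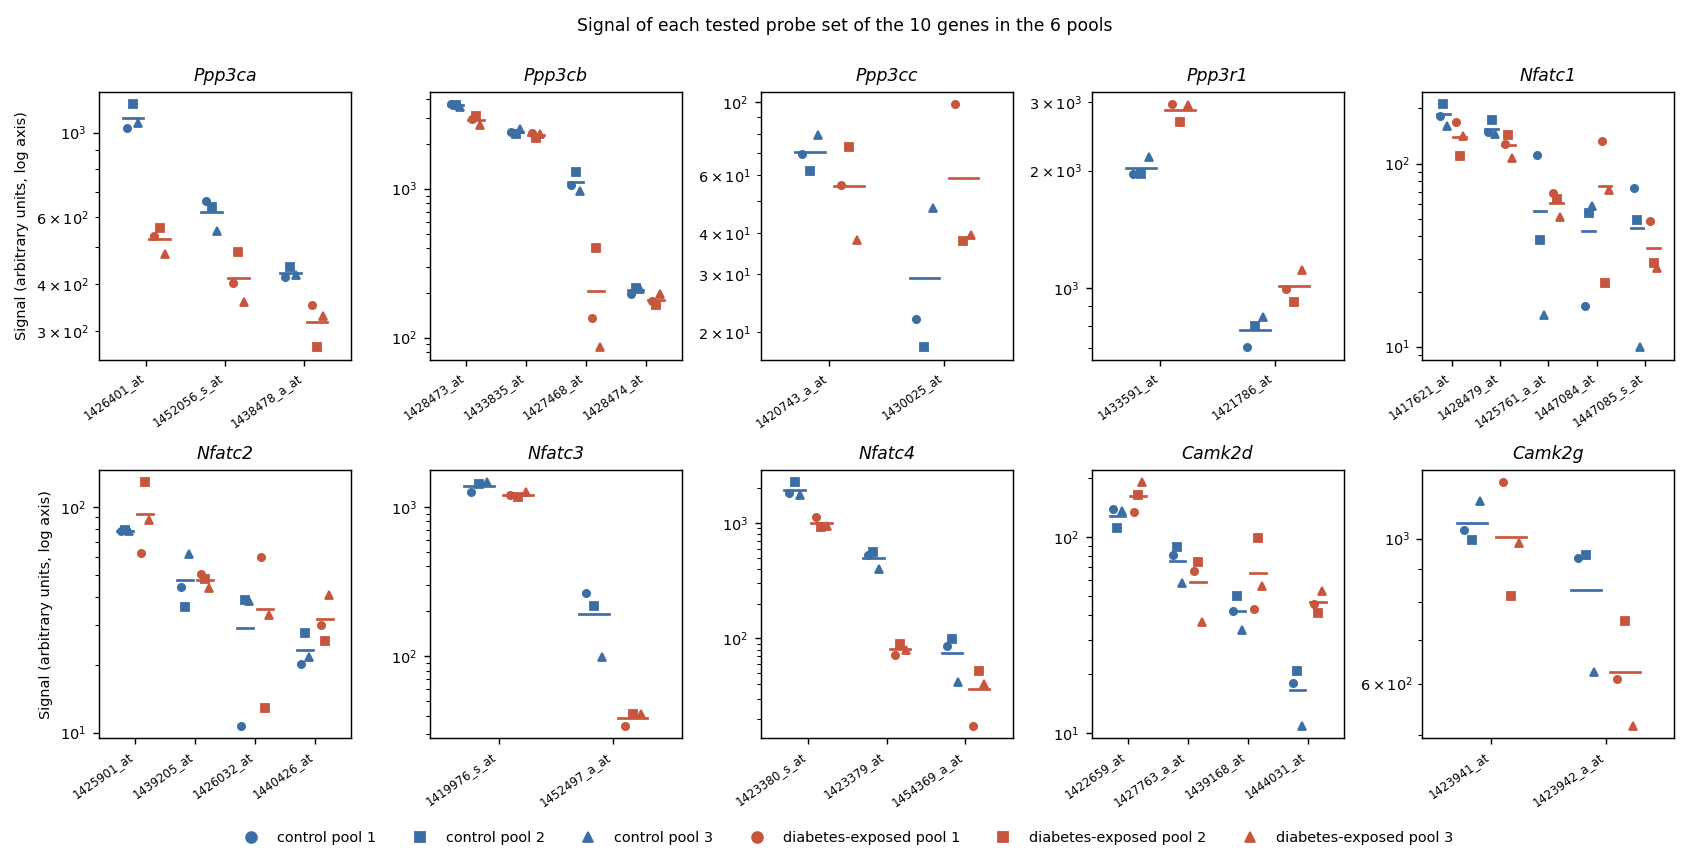
Signal of each of the 31 tested probe sets of the 10 genes (arbitrary units, log axis) in the 3 control pools (blue) and the 3 diabetes-exposed pools (red), with the group mean as a bar and the pool number as the marker shape. The groups lie furthest apart at Ppp3cb 1427468_at (1103 against 207.2 on average) and Nfatc4 1423379_at (497.2 against 80.73), while the 5 Nfatc1 and 4 Nfatc2 sets overlap or nearly touch.

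Nfatc4, the family member known from axon growth and vessel assembly and for a role in the embryonic heart, lay below control at all 3 of its tested sets. Its probe set 1423379_at had signals of 532.6, 561 and 398 in control pools 1 to 3 and of 72.3, 89.8 and 80.1 in diabetes-exposed pools 1 to 3. Every diabetes-exposed pool lay far below the lowest control pool, and the 6.12-fold difference (log2 fold change -2.61 ± 0.19, SE) was many times the spread within either group. The brightest Nfatc4 set, 1423380_s_at, read 1827, 2253 and 1764 in control and 1123, 917 and 939.9 in diabetes-exposed pools. These groups were apart as well, by 1.96-fold (log2 -0.97 ± 0.13), which put this set just outside a 2-fold limit. The third set, 1454369_a_at, was dim, with 85.2, 98.2 and 41.8 in control and 17.4, 52.0 and 40.3 in diabetes-exposed pools, and its groups overlapped (log2 -1.09 ± 0.52, not called). The 2 sets with clear signals thus pointed the same way with log2 differences of unequal size.

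Nfatc3, a widely expressed NFAT protein that acts with Nfatc4 in vessel assembly, gave unlike differences at its 2 sets. The bright set 1419976_s_at read 1250.8, 1425 and 1455 in control and 1199.7, 1159 and 1250.6 in diabetes-exposed pools. The highest diabetes-exposed pool thus reached the lowest control pool to within a unit, and the set was not called (log2 -0.19 ± 0.10). The set 1452497_a_at read 262.5, 216 and 98.3 in control and 34.0, 41.1 and 41.1 in diabetes-exposed pools. All 3 control pools lay above the diabetes-exposed ones, by 4.59-fold on average (log2 -2.20 ± 0.38), but the controls themselves spread from 98.3 to 262.5. The identifiers carry no position along the transcript, so whether the sets read different forms of the Nfatc3 transcript was not tested.

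Nfatc1, the NFAT gene of the endocardium that is required for the heart valves, had 5 tested sets, none of them called. At the brightest, 1417621_at, control pools read 183, 212 and 161 and diabetes-exposed pools 168, 109.5 and 142. The groups overlapped, with a log2 fold change of -0.42 ± 0.22. A second set, 1428479_at, was lower without overlap, with 148.5, 172 and 145.5 against 128.5, 143 and 107 (log2 -0.31 ± 0.20). The log2 fold changes of the other 3 sets were 0.02, 0.60 and 0.67, with standard errors of 0.65 to 0.74 and signals that varied several-fold within a group. Nfatc2, best known from T cells, had 4 tested sets with log2 fold changes from 0.04 to 0.45, none of them called. Its brightest, 1425901_at, read 78.3, 79.1 and 78.3 in control and 62.7, 129 and 87.8 in diabetes-exposed pools, which lay on both sides of the controls. Of 6 T cell and leukocyte markers, Ptprc could be read (82.1 ± 9.27 and 92.9 ± 10.8, log2 0.18), while Cd3e, Cd3g and Cd2 were below the filter.

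All 3 sets of Ppp3ca, a widely expressed gene of the catalytic subunit, were called lower. Its brightest set, 1426401_at, read 1029, 1190.2 and 1063 in control and 536, 559.9 and 479.9 in diabetes-exposed pools. Both groups were tight, with SDs of 84.9 and 41.1, and the difference of 2.08-fold (log2 -1.06 ± 0.11) lay just inside a 2-fold limit. The sets 1452056_s_at and 1438478_a_at were lower by less, with log2 fold changes of -0.58 ± 0.15 and -0.44 ± 0.14. At both, the lowest control pool (553 and 418) stayed above the highest diabetes-exposed pool (484 and 353).

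Ppp3cb, the other widely expressed catalytic subunit gene, had 4 tested sets that differed among themselves. The set 1427468_at read 1054.5, 1292 and 963 in control and 136, 399.7 and 85.9 in diabetes-exposed pools, a 6.55-fold difference (log2 -2.71 ± 0.47). Diabetes-exposed pool 2 lay nearest to the controls, and with it as the only diabetes-exposed pool the log2 fold change was -1.45. The brightest set, 1428473_at, read 3711, 3652 and 3509.5 in control and 2939, 3064 and 2657 in diabetes-exposed pools. The groups were apart there too, but by 1.26-fold (log2 -0.33 ± 0.09). The sets 1433835_at and 1428474_at were not called, with log2 fold changes of -0.08 ± 0.08 and -0.22 ± 0.16. The first of these read 2418, 2343 and 2500.1 in control and 2365, 2206 and 2313 in diabetes-exposed pools, so that the groups overlapped. The log2 differences of the 4 sets thus ran from -2.71 to -0.08 for the same gene.

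Ppp3cc, the catalytic subunit gene known from testis and brain, was dim. Its brighter set, 1420743_a_at, read 69.9, 61.9 and 79.9 in control and 56.0, 73.0 and 38.1 in diabetes-exposed pools, which overlapped (log2 -0.38 ± 0.34). The other, 1430025_at, had a log2 fold change of 0.99 ± 0.56 that rested on 1 pool, with 22.0, 18.0 and 47.8 against 99.0, 38.0 and 39.5. Neither was called.

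The regulatory subunit gene Ppp3r1 lay on the other side of the controls from Ppp3ca and Ppp3cb. Its set 1433591_at read 1961, 1955 and 2163 in control and 2966, 2666 and 2955 in diabetes-exposed pools. Every diabetes-exposed pool was above every control pool, by 1.41-fold (2026 ± 119 against 2862 ± 170, log2 0.50 ± 0.09). The set 1421786_at was also higher without overlap, at 704, 799 and 844 against 994, 921 and 1115 (log2 0.37 ± 0.12). The probe set 1450368_a_at, which the platform's table assigns to both Wdr92 and Ppp3r1 and which is therefore not counted here, went the other way, with 216, 216 and 125 against 65.9, 86.1 and 98.4 (log2 -1.13). Which of the 2 genes it read was not tested. The study listed Ppp3r1 as decreased by this shared set.

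The CaM kinase II genes differed little at their brightest sets. Camk2g, the gamma subunit of this kinase, had a set 1423941_at at 1031, 994.5 and 1141.5 in control and 1219.5, 817.5 and 985 in diabetes-exposed pools. The diabetes-exposed pools surrounded the controls (log2 -0.09 ± 0.15). Its other set, 1423942_a_at, overlapped too (log2 -0.41 ± 0.19), and it was called lower without control pool 3 (-0.60), without diabetes-exposed pool 2 (-0.55) and with the replicate number as a block. Camk2d, the delta subunit and the main form in heart muscle, had 4 tested and 3 untested sets. The brightest, 1422659_at, read 139, 111 and 135 in control and 134, 162 and 189 in diabetes-exposed pools, with a log2 fold change of 0.33 ± 0.21 and overlap. The higher call of Camk2d came from 1444031_at, at 18.1, 20.8 and 10.9 in control and 45.6, 41.1 and 52.9 in diabetes-exposed pools (log2 1.53 ± 0.48). All 3 control signals lay under 26.7, the signal below which a probe set's mean left it untested, so the set was in the test through the pools in which it was high and its fold is imprecise. The log2 difference was 0.70 with 32 added to each signal, and the call ended with no filter, with the regularized test and with the replicate number as a block. The other tested Camk2d sets had log2 fold changes of -0.39 and 0.58.

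The 7 untested sets belong to Ppp3cb (1), Nfatc2 (2), Nfatc4 (1) and Camk2d (3), and their signals ran from 1.9 to 44.3. Values are given for 2 of them. The Nfatc2 set 1425990_a_at read 28.8, 8.3 and 17.5 in control and 2.6, 1.9 and 3.4 in diabetes-exposed pools without overlap. The Camk2d set 1460630_at read 35.8, 24.2 and 20.5 against 3.8, 5.7 and 21.4, and its groups overlapped. At signals this dim no fold is given.

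**Figure D2:**
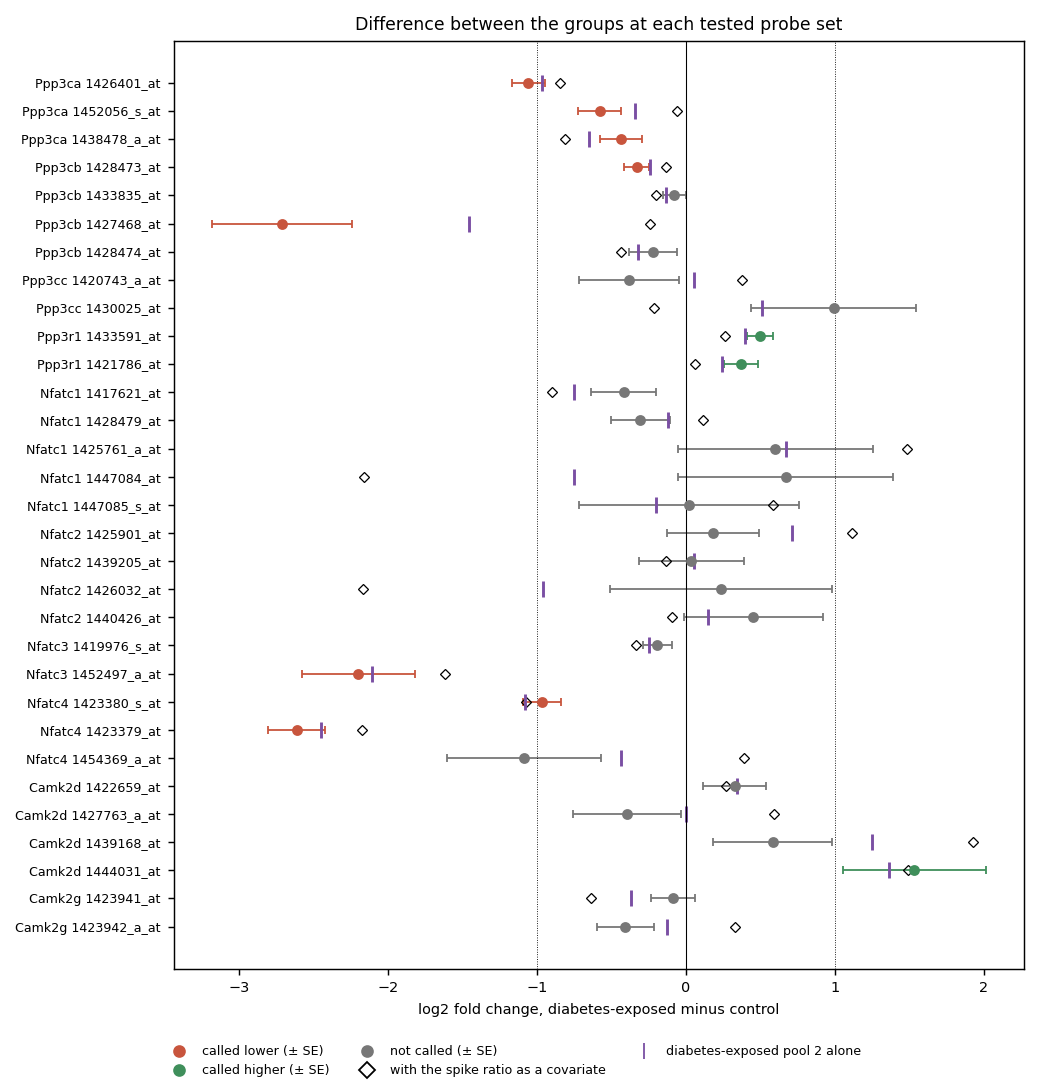
The log2 fold change of each tested probe set (diabetes-exposed minus control, circles, with the SE as bars, red where called lower, green where called higher, grey where not called), with its value from a fit adjusted for the spike ratio (diamonds) and with diabetes-exposed pool 2 as the only exposed pool (violet ticks). Ppp3cb 1427468_at moves from -2.71 to -0.24 after that adjustment, while Nfatc4 1423379_at moves from -2.61 to -2.17.

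The values of the members moved to unequal degrees when the spike ratio was added to the fit. Over the 6 arrays, the log2 ratio of middle to 3′ spike signal had a correlation of -0.886 with exposure. The fit can therefore hardly separate the ratio from exposure, and it loses precision. For example, the SE of Ppp3ca 1426401_at grew from 0.112 to 0.216. A lost call or a moved value thus does not tell the 2 apart. All 8 sets called lower stayed below 0 and all 3 called higher stayed above 0 when the ratio was added to the fit, but 1 of the 8 and 0 of the 3 were still called by limma. The 1 member set that was higher there at an unadjusted p under 0.05 was Camk2d 1439168_at, which was not called in the fit without the ratio. Over all probe sets this fit called 334 lower and 29 higher, in place of 6550 and 4318. Nfatc4 1423379_at was the set that was still called, at -2.17 ± 0.38, and Nfatc4 1423380_s_at went from -0.97 to -1.07. Nfatc3 1452497_a_at went from -2.20 to -1.62 ± 0.80, and Ppp3ca 1426401_at from -1.06 to -0.85. In contrast, Ppp3cb 1427468_at went to -0.24 ± 0.35 and Ppp3ca 1452056_s_at from -0.58 to -0.06. The 2 sets of Ppp3r1 went from 0.50 to 0.26 and from 0.37 to 0.06, and Camk2d 1444031_at remained at 1.49.

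Diabetes-exposed pool 2, whose ratio was closest to the controls, was also set against them alone, on the assumption that it varies as they do. All 8 lower sets were then below 0 and all 3 higher sets above 0. This was fixed in advance, since the groups did not overlap at any of these sets, and nothing is read from it. Only sizes are given here, since 1 pool has no spread of its own. The log2 fold change was -2.45 for Nfatc4 1423379_at, -1.08 for 1423380_s_at, -2.11 for Nfatc3 1452497_a_at and -0.96 for Ppp3ca 1426401_at. It was smaller in size than with all pools for Ppp3cb 1427468_at (-1.45 in place of -2.71) and Ppp3ca 1452056_s_at (-0.345 in place of -0.578). The same held for Ppp3cb 1428473_at (-0.24 in place of -0.33), while Ppp3ca 1438478_a_at was larger (-0.65 in place of -0.44). Of the higher sets, Ppp3r1 1433591_at stood at 0.40, Ppp3r1 1421786_at at 0.24 and Camk2d 1444031_at at 1.36. Within the groups, pool 2 was the highest of the diabetes-exposed pools and control pool 3 the lowest of the controls at 4 of the 8 lower sets, beside 42.9% of all 6550 sets called lower. How much of any member's difference goes with the labelling of the RNA was not tested beyond these values.

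**Figure D3:**
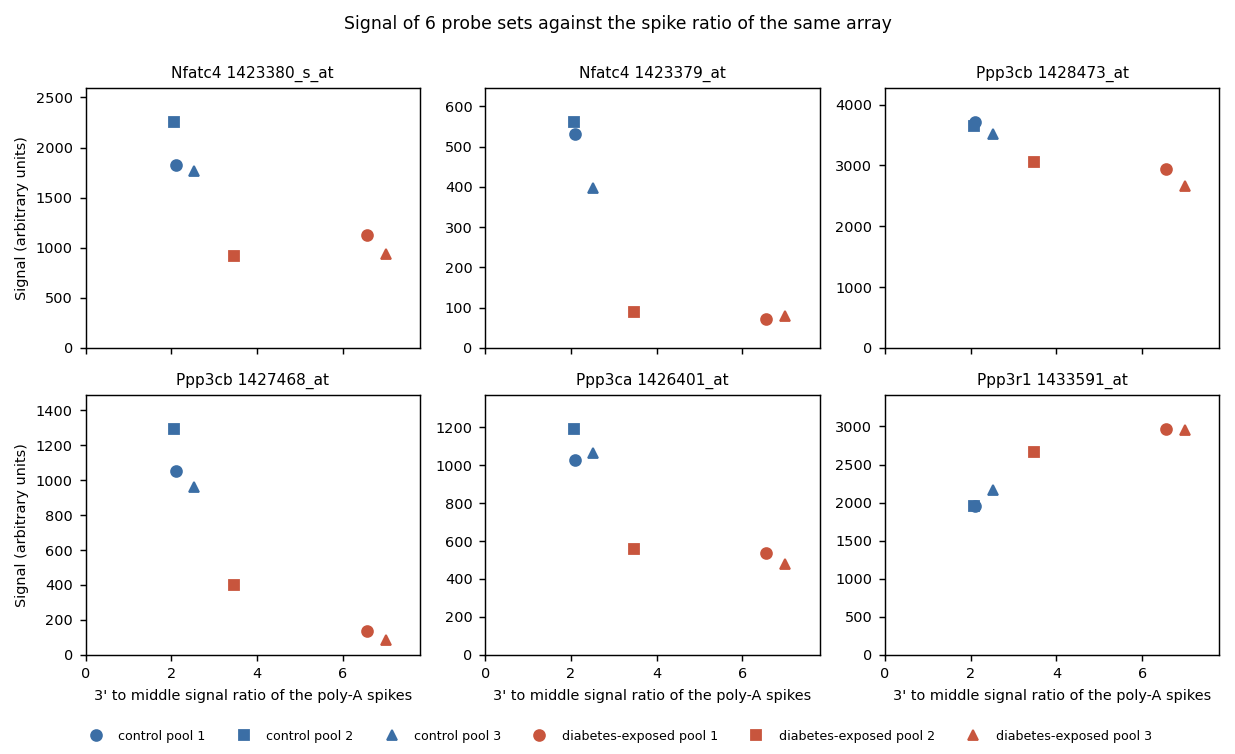
Signal of 6 probe sets (arbitrary units, from 0) against the 3′ to middle signal ratio of the spikes on the same array, for control (blue) and diabetes-exposed pools (red). In diabetes-exposed pools 1 to 3, Nfatc4 1423379_at read 72.3, 89.8 and 80.1 and Ppp3cb 1427468_at read 136, 399.7 and 85.9. All diabetes-exposed ratios (3.47 to 7.00) lie above all control ratios (2.07 to 2.52), so ratio and exposure cannot be told apart here.

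The called sets kept their direction under each scaling. With median centring this was fixed in advance. It moved every set up by the same 0.30, so no higher set could change sign. Nor could a lower one, as the smallest lower log2 fold change was -0.33. Centring each array on its median moved the median of all sets from -0.05 to 0.25, quantile normalization to 0.11 and cyclic loess to 0.05, and all 8 lower sets stayed below 0 and all 3 higher sets above 0 under each. Nfatc4 1423379_at stood at -2.31, -2.33 and -2.38 and Ppp3r1 1433591_at at 0.80, 0.44 and 0.44 under these settings. Ppp3cb 1428473_at, in contrast, came to -0.03 with median centring, and the uncalled Nfatc3 1419976_s_at changed sign to 0.11. Leaving out control pool 1, control pool 2 or diabetes-exposed pool 3 ended the call of Ppp3ca 1452056_s_at (without control pool 1, log2 -0.53), Ppp3ca 1438478_a_at (-0.45) and Ppp3cb 1428473_at (-0.31), and left 5 lower calls. The call of Ppp3ca 1438478_a_at also ended without control pool 3 (-0.45) or diabetes-exposed pool 2 (-0.33). Camk2d 1444031_at lost its call without any single pool (log2 1.25 to 1.72). The call of Ppp3r1 1421786_at ended without control pool 1 or 2 or diabetes-exposed pool 1 or 3 (0.29 to 0.39), and that of 1433591_at held without each pool in turn.

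The question of whether other genes of the pathway differed was put to 80 genes, of which 71 were measured. Each was read at its brightest tested probe set and judged by limma with Benjamini-Hochberg adjustment over all 30025 sets. In diabetes-exposed pools 28 fell and 6 rose, and 37 did not pass. Over all 13956 genes 19.9% fell and 17.6% rose. The median log2 fold change was -0.31 for the 71 genes and near 0 for all genes, and it was -0.01 for the 71 with median centring, which shifted all genes by 0.30. After adjustment for the spike ratio 2 of the 28 remained called and 27 remained below 0, and 0 of the 6 remained called.

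**Figure D4:**
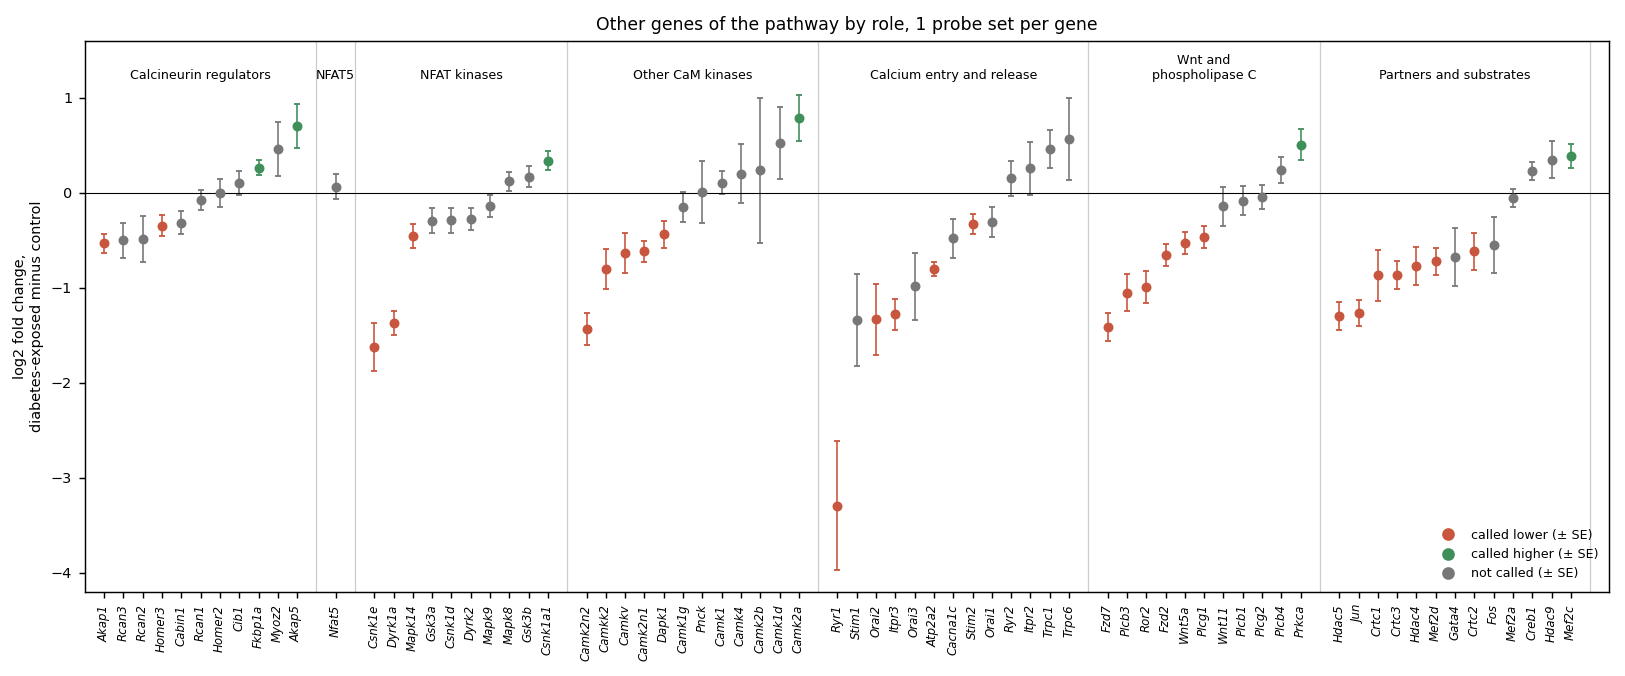
The log2 fold change (diabetes-exposed minus control, with the SE) of the 71 other genes of the pathway at 1 probe set per gene, by role and in rising order within a role, red where called lower, green where called higher and grey where not called. The lower calls are found in every role shown but that of Nfat5. Over all 13956 genes, 19.9% were called lower and 17.6% higher.

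Among regulators and anchors of calcineurin, 2 of 11 measured genes fell and 2 rose. Akap1, an anchor at the mitochondrial surface, fell by 0.53 on the log2 scale (adjusted p = 0.0044, limma), and Homer3, a scaffold that binds NFAT, fell by 0.34 (0.042), a call that held without diabetes-exposed pool 1 but without no other single pool (-0.36 to -0.26) and ended under all 3 scalings (median centring -0.043, quantile -0.15, loess -0.24). Fkbp1a, the FK506-binding protein, rose by 0.26 (0.035) at its brightest set, but its log2 fold change was -0.06 and -0.017 under quantile and loess normalization, and its 4 sets ran from -0.31 to 0.36. The call also ended without any pool other than diabetes-exposed pool 2 (0.21 to 0.28). Akap5, an anchor that holds calcineurin at membranes, rose by 0.70 at 1 set (0.044) and fell by 1.40 at another (0.014), so that it has no single direction. The higher call ended without control pool 1 or 2 or diabetes-exposed pool 1 or 3 (0.55 to 0.74). Rcan1, an inhibitor of calcineurin with a form that NFAT itself induces, read 1485, 1247 and 1215 in control and 1294, 1245 and 1190.4 in diabetes-exposed pools at its brightest set, with a log2 fold change of -0.08 ± 0.11 that did not pass (0.61).

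The second Rcan1 probe set, 1416601_a_at, is described after its values were seen. It read 401.9, 359 and 139 in control pools and 16.3, 7.6 and 35.3 in diabetes-exposed pools. The groups did not overlap, but the diabetes-exposed signals lay near or under the filter limit of 26.7, so that the set was measured through the controls and the size of the difference is imprecise. As a description, the log2 difference was -4.06, and it was -2.61 with 32 added to each signal. It ran from -4.61 to -3.50 without each pool in turn, and was -5.69 after adjustment for the spike ratio. Which Rcan1 transcript this set reads was not tested, since the table gives no positions.

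Of the 10 kinases that phosphorylate NFAT, 3 fell and 1 rose. Dyrk1a, which counters calcineurin by returning NFAT to the cytoplasm, read 1234, 1059 and 1079 in control and 447.5, 484 and 378 in diabetes-exposed pools. It fell by 1.37 (adjusted p = 0.00034, limma) without overlap, and all 3 of its sets fell, with log2 fold changes of -1.37, -1.44 and -3.35. Its log2 fold change was -1.03 (0.082) when the spike ratio was in the model. Csnk1e, casein kinase I epsilon, fell by 1.63 (0.002), but its value was -0.39 (0.53) with the covariate and -0.35 at another set (0.15). Mapk14, the p38 alpha kinase, fell by 0.46 (0.021). The Mapk14 call ended with the covariate (-0.12), with median centring (-0.15) and without control pool 2 or 3 or diabetes-exposed pool 1 (-0.45 to -0.32). Csnk1a1, casein kinase I alpha, rose by 0.34 (0.025). That call ended under quantile and loess normalization, where its log2 fold change was 0.02 and 0.07. Without control pool 1 or 2 or diabetes-exposed pool 1 or 3 it was 0.26 to 0.37, none of them called. The other Csnk1a1 sets ran from -0.32 to 0.18. Nfat5, the NFAT protein that answers to osmotic stress and not to calcineurin, did not pass (0.06, adjusted p = 0.75).

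Of 12 other CaM kinases and their regulators, 5 fell and 1 rose. Both genes of the CaM kinase II inhibitor proteins fell at their brightest sets. Camk2n2 read 433, 444 and 369 in control and 176, 158 and 129 in diabetes-exposed pools and fell by 1.44 (adjusted p = 0.00079, limma), with no overlap. Camk2n1 fell by 0.62 (0.0041), while its other, dim set had a log2 fold change of 1.09 ± 0.73 (0.28). With the spike covariate neither gene was called, at -1.22 (0.16) for Camk2n2 and -0.37 (0.49) for Camk2n1. Camkk2, which activates CaM kinases I and IV, fell by 0.80 (0.018). The Camkk2 call ended without control pool 1 (-0.73), under the 3 scalings (-0.57 to -0.48) and with the spike covariate (-0.37). Camk2a, the alpha subunit of CaM kinase II and a mainly neuronal gene, read 87.8, 145 and 102.5 in control and 171, 175.5 and 225 in diabetes-exposed pools and rose by 0.79 (0.032). The Camk2a call ended without any pool other than control pool 2 and diabetes-exposed pool 2 (0.63 to 0.86). Neuron markers differed in the other direction, with 4 of 6 lower (median log2 -0.60) and summed signals of 8667 to 10220 in control and 6748 to 7367 in diabetes-exposed pools. Their part in these results was not tested.

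Calcium entry and release genes held 5 lower calls and no higher one among 13 (8 did not pass). Atp2a2, the SERCA2 pump that returns calcium to the endoplasmic reticulum, read 6850, 6564 and 6564 in control and 3940.3, 3852 and 3659 in diabetes-exposed pools. It fell by 0.80 (adjusted p = 0.00032, limma), as did 5 of its 6 sets in all, and it was still called after adjustment for the spike ratio (-0.76, 0.035). This pump is abundant in heart muscle, and 7 of 7 cardiomyocyte markers were higher (median log2 0.68). Their summed signals were 19380 to 23340 in control and 34390 to 37600 in diabetes-exposed pools. Their part in the values of Atp2a2 and of the members was not tested. Itpr3, a receptor that releases calcium on inositol trisphosphate, fell by 1.28 (0.001). Ryr1, the ryanodine receptor of skeletal muscle, fell by 3.29 (0.0064), with diabetes-exposed signals of 4.3, 33.0 and 15.2 that are near background, and its value was -0.90 (0.79) with the covariate.

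Upstream Wnt and phospholipase C genes gave 6 lower and 1 higher call among 11. Fzd7, a Wnt receptor, fell by 1.42 (adjusted p = 0.00053, limma), Ror2, a receptor for Wnt5a, by 0.99 (0.0026), and Fzd2, a receptor that acts through calcium, by 0.66 (0.0037). Fzd2 was still called with the covariate (-1.14, 0.021), the only gene beside Atp2a2 among the 28. Prkca, protein kinase C alpha, rose by 0.50 (0.039) at 1 set and its other set had a log2 fold change of -0.38 (0.27). The Prkca call ended without any single pool (0.43 to 0.56). The study had drawn on these arrays for its own list of Wnt-pathway genes, so the Wnt genes are no independent evidence of direction. The same holds for other genes on that list, among them Csnk1e, Plcb3, Jun, Nfatc3, Nfatc4, Ppp3ca, Ppp3cb and Camk2d.

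Partners and substrates gave 7 lower and 1 higher call among 13, with a median log2 fold change of -0.68. Jun, which forms the AP-1 partner of NFAT on DNA, fell by 1.27 (adjusted p = 6e-04, limma), Hdac5, a class II deacetylase that CaM kinases phosphorylate, by 1.30 (0.00073), and Crtc3, a CREB coactivator that calcineurin dephosphorylates, by 0.87 (0.0027). Mef2c, a muscle factor activated in calcineurin signalling, rose by 0.39 (0.04) at its brightest set. The Mef2c call ended without any pool other than diabetes-exposed pool 2, and its other 4 sets ran from -0.76 to 0.01. Of the 6 endothelial and endocardial markers, Pecam1 was lower (log2 -1.02), Cdh5 higher (0.72) and 4 not called, and their summed signals were 3420 to 3560 in control and 2937 to 3924 in diabetes-exposed pools.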

How the data were processed

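RNA of 6 pools of whole FVB mouse embryos at E10.5 was labelled by the one-cycle method and hybridised to 1 Affymetrix mouse array each. The authors deposited signal intensities (linear, 1 per probe set), computed with GCOS and MAS5 from matched and mismatched oligonucleotides, with versions not given in the sources used here. Each array had been scaled to a common average, so a signal is a share of its own pool's total. All 6 columns were mapped to samples by title and 0 were unused.

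Log2 of the signals was tested with limma 3.58.1 in R 4.3.3 (lmFit, eBayes with trend, Benjamini-Hochberg adjustment, called at adjusted p under 0.05), after leaving out 64 Affymetrix controls and the dimmest 33.3% of the other sets by mean log2 signal (under a signal of 26.7). The platform's table gives 34958 probe sets 1 symbol, 932 several and 9211 none, and no coordinates. Values are given in every pool for the brightest tested set of each member gene and each set with a 2-fold difference. Of each role in the pathway list, up to 3 genes that fell and 3 that rose with the smallest adjusted p were named, together with Rcan1 and all genes of roles with 3 or fewer measured. The members, lists and rules were chosen with earlier results of these data known.

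Alternatives were 3 scalings, a pseudocount of 32, other filters, no variance trend, the Welch and regularized tests of the study's methods, the spike ratio as a covariate, a replicate block, leaving out each pool, the mean of a gene's sets, and leaving out shared sets. Leaving out diabetes-exposed pools 1 and 3 together was added after seeing the data. The fit was tested on simulated data with independent noise at each probe set and an added group shift. They held no difference in the spike ratio between the groups, so this test says nothing about that ratio. The 6 arrays limit the precision, p-values measure the spread between pools, and an exact permutation test of 3 against 3 cannot go below p = 0.1. The plots used Python 3.11.15 and matplotlib 3.10.9.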

Additional observations from a re-analysis of the deposited data

How the results depend on the processing

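The count of member probe sets called lower (8) was 5 with median centring, 2 by Welch's test and 1 with the spike covariate, and 5 to 8 without each pool in turn. The count called higher (3) was 0 by Welch's test (3 at an unadjusted p under 0.05), 0 with the covariate by limma (1 unadjusted), 1 with diabetes-exposed pools 1 and 3 left out, and 1 to 2 without each pool. The median log2 fold change of the members (-0.19) reversed to 0.11 with median centring and 0.026 with quantile normalization, was -0.09 with loess, -0.33 with the 50% filter and -0.085 without shared sets, and ran from -0.26 to -0.08 without each pool. Of the 20 member sets not called, 17 changed sign under at least 1 setting, 10 of them or fewer under any single one. Pathway genes called lower (28) numbered 13 with median centring, 2 by Welch's test, 2 with the covariate, 16 without exposed pools 1 and 3, and 18 to 30 without each pool. Pathway genes called higher (6) numbered 12 with median centring, 3 with no filter, 3 with no variance trend, and 0 to 7 without each pool. They numbered 0 by Welch's test (5 unadjusted), 0 with the covariate (2 by limma unadjusted), 0 without exposed pools 1 and 3 (2 unadjusted) and 0 by the mean of all sets of a gene (1 unadjusted). Named pathway genes that reversed were Fkbp1a (-0.06 with quantile and -0.017 with loess normalization), Nfat5 (-0.12 with the covariate, -0.067 to 0.155 without each pool, the lowest without control pool 1) and Rcan1 at its brightest set (0.23 with median centring, 0.018 with quantile normalization, -0.131 to 0.013 without each pool, the highest without control pool 1). The cause was not tested. Same-numbered pools did not deviate together (correlations 4.94e-05, 0.0761 and 0.118), and with the replicate number as a block 8 member sets were lower (Camk2g 1423942_a_at in place of Ppp3ca 1438478_a_at) and 2 higher, and 29 pathway genes lower and 4 higher. The other settings listed kept every count within 1.5 times. Signals near background and 6 arrays limit what can be resolved.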
